A study of Mus musculus with 6 samples.

Results

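The genes described here are 47 of the 17418 genes counted in single cells of the neonatal mouse cortex, chosen by symbol as parts of cilia. They are the axonemal dynein heavy chains (symbols beginning *Dnah* and a digit, 11 genes), dynein intermediate chains (*Dnaic1* and *Dnaic2*, the genes found with *Dnai*), tektins (*Tekt*, 5 genes), radial spoke proteins (*Rsph*, 6 genes) and *Foxj1*, together 25 motile cilium members, and the intraflagellar transport genes (*Ift*, 14 genes) and Bardet-Biedl syndrome genes (*Bbs*, 8 genes), together 22 members shared by motile and primary cilia. The rule itself goes by symbol alone, but it was set with earlier results of these data known.

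A cilium is a microtubule shaft, the axoneme, that grows from a basal body at the cell surface. Many cells of the brain, among them neurons and astrocytes, carry a solitary immotile primary cilium that receives signals, whereas ependymal cells, which line the ventricles, carry tufts of motile cilia that move cerebrospinal fluid. Motile axonemes are driven by dynein arms, braced by tektins and tuned by radial spokes, under a programme switched on by the transcription factor FOXJ1, while intraflagellar transport particles and the BBSome, the complex of most *Bbs* products, carry cargo along cilia of either kind.

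Cortices of both hemispheres were taken at postnatal day 5 (P5) from 3 wild type mice (WT, strain FVB.129P2-Pde6b+ Tyrc-ch/AntJ) and 3 *Fmr1* knockout mice (*Fmr1*-KO, allele Fmr1tm1Cgr/J on the background FVB.129P2-Pde6b+ Tyrc-ch), of both sexes. The knockout is constitutive, carried by every cell type. Cells were dissociated with papain and captured with InDrop, in which barcoded beads tag each transcript with a unique molecular identifier (UMI). Batch 1 (WT 1, *Fmr1*-KO 1 and *Fmr1*-KO 2) used bead version 2 and batch 2 (WT 2, WT 3 and *Fmr1*-KO 3) bead version 3.8, so that batch and bead version cannot be told apart. The table held 18393 cells, of which 17280 were not marked as doublets by the authors, with 7909181 to 20629134 UMIs per mouse. The subtypes are those the authors deposited. *Fmr1* itself was at 331, 499 and 894 UMIs in the WT and at 61, 50 and 89 UMIs in the *Fmr1*-KO mice in the largest subtype, Astrocytes_1.

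The same cell barcodes recurred in several libraries. Of 15463 distinct barcodes, 2231 occurred in more than 1 library. When a barcode recurred within a mouse, 93.3% of the 3307 pairs of cells had the same subtype, compared with 16.7% of 468 pairs between mice. Results were therefore also computed with 1 cell kept per mouse and barcode, which left 205 of the 255 ependymal cells.

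The 255 ependymal cells, with 1329750 UMIs in all, came to 33 from WT 1, 37 from WT 2 and 13 from WT 3, and to 12 from *Fmr1*-KO 1, 39 from *Fmr1*-KO 2 and 121 from *Fmr1*-KO 3. The label was checked against marker genes. All 8 marker genes listed for ependymal cells, such as *Tm4sf1* and *Tmem212*, were at least 4-fold higher there than in the reference types in every mouse, and their summed level ran from 3672 to 5786 CPM (counts per 1e6 UMIs of the same mouse and subtype). Choroid plexus epithelium, which also bears cilia, had its defining transcript *Ttr* at 0 UMIs in the ependymal cells. The 7 genes listed for it summed to between 21.7 and 369 CPM, and 1 of them, *Folr1*, was 4-fold higher in every mouse. In 2 mice the ependymal cells also held transcripts of the oligodendrocyte lineage, whose 6 listed genes summed to 1509 CPM in *Fmr1*-KO 1 and 661 CPM in WT 2, against 36.7 to 56.1 CPM in the other mice. In *Fmr1*-KO 1, 9 of the 12 ependymal cells had UMIs of 3 or more motile members. The part of these transcripts in the results was not tested, and counts without both mice are given beside the main ones.

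Promoters are shown first for members in which letters known from regulators of ciliary genes occurred. RFX factors bind a motif of GTTNCC, 1 to 3 bases and GGNAAC, and forms of it contain GTTGCCA, while GTAAACA is the core that forkhead factors such as FOXJ1 recognise. RefSeq windows (build GRCm38.p6, 250 bases before to 50 after the start site) were at hand for 41 of the 47 members, not for *Foxj1*, *Rsph1*, *Rsph4a*, *Ift80*, *Ift81* and *Ift122*. The full RFX motif was found, on either strand, in 2 of the 41, *Ift57* and *Bbs7*, against 0.903% of 27025 genes, GTTGCCA in 6 (14.6%) against 5.02%, and GTAAACA in 2 (4.88%) against 4.05%. The 6 were *Dnah7b*, *Dnah10*, *Tekt1*, *Ift27*, *Ift88* and *Bbs1*, and the 2 with the forkhead letters were *Dnah17* and *Tekt3*. The 250 bases before the start are printed for both genes with the full RFX motif and for a dynein and a tektin gene with GTTGCCA, 5′ to 3′ along the gene, with the matched letters in capitals. They lie at chr16:49699044-49699293 on the plus strand (*Ift57*), chr3:36613390-36613639 on the minus strand (*Bbs7*), chr11:72361883-72362132 on the minus strand (*Tekt1*) and chr1:46066603-46066852 on the plus strand (*Dnah7b*).
Ift57: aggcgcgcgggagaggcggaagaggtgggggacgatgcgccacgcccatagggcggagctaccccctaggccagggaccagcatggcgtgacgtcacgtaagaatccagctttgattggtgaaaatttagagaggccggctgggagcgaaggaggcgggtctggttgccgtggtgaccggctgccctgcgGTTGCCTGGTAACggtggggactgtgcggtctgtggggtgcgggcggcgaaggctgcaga
Bbs7: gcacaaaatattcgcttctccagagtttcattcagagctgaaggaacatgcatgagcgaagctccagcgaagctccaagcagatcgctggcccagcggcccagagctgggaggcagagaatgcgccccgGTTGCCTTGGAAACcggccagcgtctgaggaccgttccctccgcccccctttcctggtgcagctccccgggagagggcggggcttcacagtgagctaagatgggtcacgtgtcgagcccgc
Tekt1: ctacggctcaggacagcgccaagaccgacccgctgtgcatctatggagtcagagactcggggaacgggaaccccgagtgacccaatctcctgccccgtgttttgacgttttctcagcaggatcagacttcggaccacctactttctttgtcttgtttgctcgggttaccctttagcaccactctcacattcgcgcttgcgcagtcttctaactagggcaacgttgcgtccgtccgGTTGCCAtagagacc
Dnah7b: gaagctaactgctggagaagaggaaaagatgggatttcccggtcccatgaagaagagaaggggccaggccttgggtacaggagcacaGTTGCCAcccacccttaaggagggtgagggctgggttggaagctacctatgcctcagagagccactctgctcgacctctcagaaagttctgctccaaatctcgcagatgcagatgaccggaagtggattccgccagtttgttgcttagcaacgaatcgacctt
In *Ift57* the match GTTGCCTGGTAAC began 60 bases before the start site, and in *Bbs7* GTTGCCTTGGAAAC began 121 bases before it. The match of *Tekt1* lay 15 bases and that of *Dnah7b* 163 bases before the start. A match says only that the letters are present in the window, and genes without a match may hold other forms of a motif.

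To see which members set ependymal cells apart from cells with a primary cilium, UMIs were summed per mouse and subtype and scaled to CPM. The reference was the mean over the 10 subtypes taken to bear a primary cilium at most (excitatory neurons, interneurons, ganglionic precursors, SVZ and Cajal-Retzius (CR) cells, both astrocyte and both OPC subtypes, and fibroblasts), each with equal weight where a mouse had 10 or more cells of it. Ratios are log2 of (ependymal CPM + 5) over (reference CPM + 5) within a mouse, so that the ratio of a low gene is understated. UMIs count molecules at their 3′ ends, and CPM were not divided by gene length. The subtypes were clustered on the same cells, and *Foxj1*, *Ift20* and *Ift46* reached the authors' bar for clustering genes (3 UMIs in 1% of cells), therefore these ratios are a description and carry no test.

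The motile members were the ones that parted the cell types. Of the 25, 17 were at least 4-fold higher in ependymal cells in each of the 6 mice, against 2.80% of the 15247 genes with 10 or more UMIs, and 0 were 4-fold lower in every mouse, against 1.40%. Their median log2 ratio was 4.29 over the 23 with 10 UMIs, beside -0.20 over all genes. Shared members were also higher, but by less: 6 of 14 *Ift* members and 0 of 8 *Bbs* members passed 4-fold in every mouse, with median log2 ratios of 2.49 and 1.91. Higher in every mouse by any amount were 13 *Ift* and 5 *Bbs* members, against 13.3% of all genes. Without *Fmr1*-KO 1 and WT 2, 18 motile and 7 shared members passed 4-fold in every mouse.

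**Figure D1:**
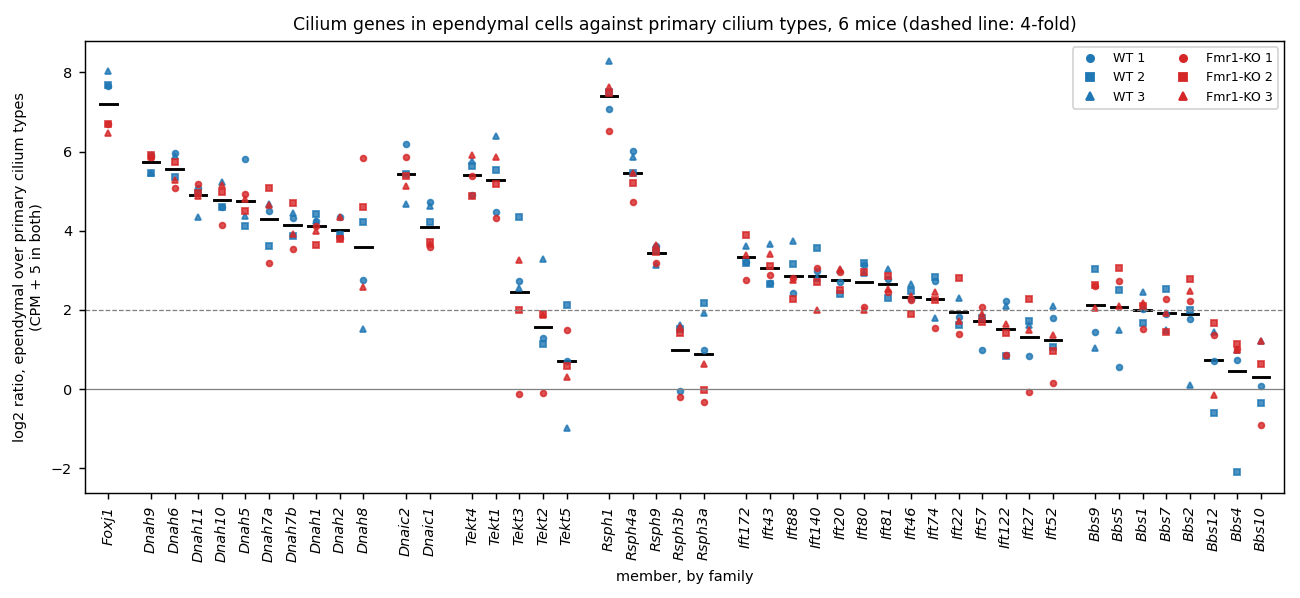
Log2 ratio of ependymal cells over primary cilium types (vertical axis, CPM + 5 in both) for the 45 members with 10 or more UMIs, grouped by family (horizontal axis). Points are the 6 mice, blue for WT and red for *Fmr1*-KO, bars their means. *Foxj1* and *Rsph1* lie above 6 in each mouse, most dynein genes above 3 and most *Ift* members between 1 and 4.

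*Foxj1*, the master regulator of motile ciliogenesis, lies at chr11:116330704-116335399 on the minus strand of mm10. Its level in ependymal cells was 2013, 2351 and 2300 CPM in the WT and 1610, 1797 and 1704 CPM in the *Fmr1*-KO mice. In the reference types it was at 5.09, 6.57 and 3.75 CPM in the WT and at 10.5, 12.5 and 14.4 CPM in the *Fmr1*-KO mice. Every ependymal value was thus far above every reference value, with a mean log2 ratio of 7.20 ± 0.66 (SD, n = 6 mice). Of the 2893 *Foxj1* UMIs outside doublets, 84.4% were in ependymal cells, where 93.3% of cells had at least 1.

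Dynein heavy chains, the motor subunits of the inner and outer arms, were high as a group. Of the 11, 9 were 4-fold higher in every mouse, and *Dnah9*, *Dnah6* and *Dnah5* had the highest levels, at 357 ± 82.7, 302 ± 64.4 and 214 ± 89.1 CPM (SD, n = 6). *Dnah9*, an outer arm heavy chain, was at 420, 293 and 232 CPM in the WT and 419, 437 and 340 CPM in the *Fmr1*-KO mice, and at no more than 2.33 CPM in the reference of any mouse. Its mean log2 ratio of 5.75 ± 0.22 was the highest of the family. *Dnah8*, another heavy chain, had the lowest ratio of those with 10 UMIs (3.58 ± 1.58) and the widest spread, at 39.2, 108 and 12.2 CPM in the WT and 335, 151 and 30.6 CPM in the *Fmr1*-KO mice, with overlap between the genotypes. *Dnah17* had 0 UMIs in ependymal cells and 6 in all others. *Dnah7a* (116 CPM) and *Dnah7b* (118 CPM) are close copies, and reads that fit both were not counted, so that their levels are uncertain.

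Both intermediate chains, which anchor the outer arm, were 4-fold higher in every mouse. *Dnaic2* was at 443, 238 and 135 CPM in the WT and 319, 281 and 182 CPM in the *Fmr1*-KO mice, and *Dnaic1* at 219, 173 and 183 CPM and at 134, 156 and 106 CPM. Their mean log2 ratios were 5.44 ± 0.54 and 4.09 ± 0.51 (SD, n = 6). *Dnaic1* was also present in astrocytes, and 20.7% of its 892 UMIs were ependymal, against 78.5% of the 405 of *Dnaic2*.

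Tektins, filaments of the axonemal microtubules, fell into separate patterns. *Tekt1* (179, 336 and 599 CPM in WT, 151, 251 and 381 CPM in *Fmr1*-KO) and *Tekt4* (163, 260 and 391 CPM in WT, 218, 176 and 376 CPM in *Fmr1*-KO) were 4-fold higher in every mouse, with mean log2 ratios of 5.29 ± 0.81 and 5.41 ± 0.44. *Tekt3* was lower, between 0 and 97.5 CPM, and 53 of its 58 UMIs were in ependymal cells. *Tekt2* averaged 24.7 ± 25.5 CPM. *Tekt5* did not mark these cells: its 10.4 ± 12.2 CPM there overlapped the 12.2 ± 12.3 CPM of Astrocytes_2, and only 8 of its 300 UMIs were ependymal.

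Radial spoke genes, whose products relay signals from the central microtubules to the dyneins, held the highest ratio of all members. *Rsph1* was at 875, 1463 and 2031 CPM in the WT and 805, 1350 and 1720 CPM in the *Fmr1*-KO mice, against 2.73 CPM in the reference, a mean log2 ratio of 7.41 ± 0.58 (SD, n = 6). *Rsph4a*, a spoke head protein, was at 294 ± 82.8 CPM with a ratio of 5.46 ± 0.47. *Rsph9* reached 210 ± 56.0 CPM but was also at 14.7 CPM in the reference, which left a ratio of 3.43 ± 0.21, with values from 3.13 to 3.64. *Rsph3a* and *Rsph3b*, close copies of each other, stayed at 9.55 and 7.61 CPM, and *Rsph6a* had 2 UMIs in ependymal cells.

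Among the intraflagellar transport genes *Ift20*, a particle subunit also known from the Golgi, was the most abundant, at 521, 715 and 1248 CPM in the WT and 704, 612 and 1112 CPM in the *Fmr1*-KO mice. The reference already held 76.3 to 152 CPM, and the mean log2 ratio was 2.76 ± 0.27. *Ift172*, of the anterograde particle, had the highest ratio of the family, 3.34 ± 0.39, and *Ift52* the lowest, 1.24 ± 0.69. *Ift43*, of the retrograde particle, was at 271 ± 91.8 CPM (ratio 3.07 ± 0.41) and *Ift46* at 325 ± 100.4 CPM (2.32 ± 0.26). Apart from *Ift27*, which was lower in *Fmr1*-KO 1, every *Ift* member was higher in the ependymal cells of each mouse.

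The *Bbs* members differed least. *Bbs9*, *Bbs1* and *Bbs7*, all subunits of the complex, were at 114 ± 45.4, 95.7 ± 27.6 and 68.5 ± 24.3 CPM, with mean log2 ratios of 2.13 ± 0.76, 1.99 ± 0.34 and 1.93 ± 0.42 (SD, n = 6). *Bbs10*, which encodes a chaperonin-like protein that helps to assemble the complex, was at 6.36 ± 6.29 CPM against 3.06 CPM, a ratio of 0.32 ± 0.86 that did not exceed its spread. *Bbs12*, of the same kind, was at 9.44 ± 7.07 CPM. The *Bbs* members summed to 448 ± 117 CPM in ependymal cells, the *Ift* members to 3119 ± 572 CPM and the motile members to 6754 ± 663 CPM.

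Genes of the same structures outside the chosen families were read from 3 lists. Of 9 regulators of multiciliated cells, 8 were in the table and 5 were 4-fold higher in every mouse, with *Myb* (498 ± 102 CPM), *Ccno* (393 ± 149 CPM) and *Cdc20b* (266 ± 111 CPM) the most abundant. *Gmnc*, *Trp73* and *Rfx3* were not among the 5. *Trp73* was at 87.3 ± 24.2 CPM in ependymal cells and at 510 CPM in CR cells. Of 51 other motile cilium genes 41 were in the table and 34 passed, led by *Lrrc23* (1750 ± 299 CPM), *Tppp3* (1043 ± 67.9 CPM) and *Dynlrb2* (991 ± 171 CPM). Of 53 other cilium assembly and ciliary membrane genes 13 passed. *Tmem107* (987 ± 146 CPM, log2 ratio 5.44 ± 0.35) and *Dync2li1* (337 ± 59.99 CPM, 3.25 ± 0.20) did, and *Kif3a*, a motor that carries transport particles but also other cargo, did not (293 ± 67.0 CPM, 0.55 ± 0.60). The median log2 ratios of the lists were 3.999, 4.56 and 1.78.

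Across the subtypes the 3 groups of members ranked differently. The motile members summed to 6754 CPM in ependymal cells, where every mouse was above every value elsewhere. In Astrocytes_2 they summed to 208 ± 67.9 CPM, apart from the next subtype in rank but not from all lower ones. The lowest Astrocytes_2 value, 137 CPM, was below the 164 CPM of the pericytes of WT 1. Excitatory neurons (66.0 ± 13.0 CPM), CR cells (64.2 ± 20.6 CPM, n = 5), Astrocytes_1 (63.9 ± 8.76 CPM) and all lower ones overlapped their neighbours, down to endothelial cells (12.7 ± 7.88 CPM) and microglia (10.04 ± 8.20 CPM). Pericytes averaged 54.3 ± 57.8 CPM, with WT 1 at 164 CPM, and were at 20.04 ± 13.5 CPM without 2 cells that each held UMIs of 5 or more motile members.

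**Figure D2:**
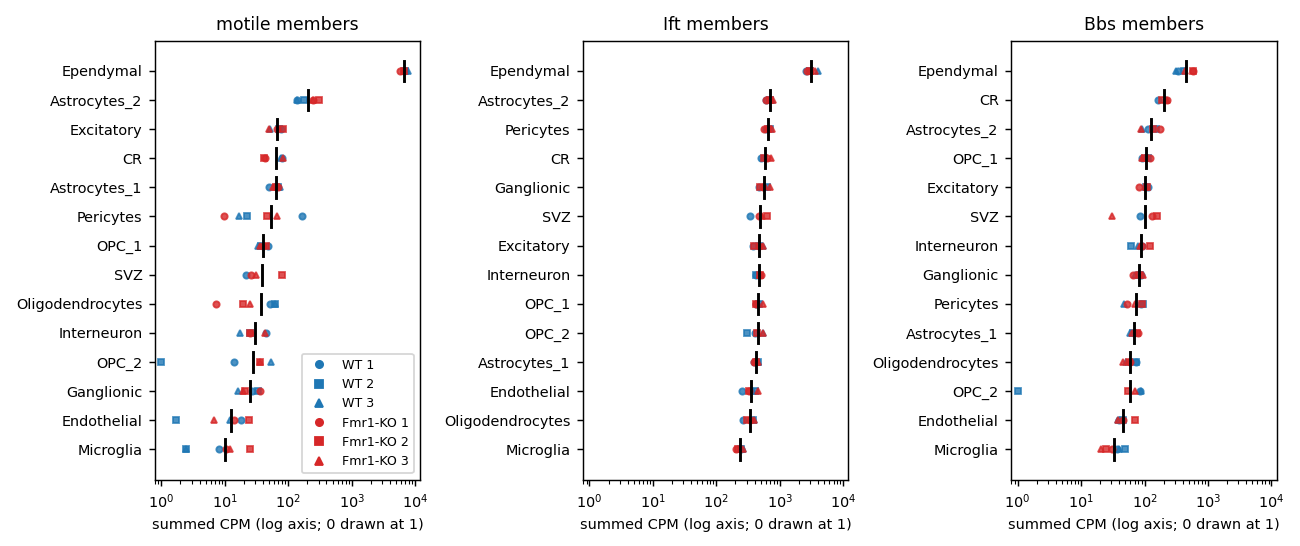
Summed CPM (horizontal log axis, with 0 drawn at 1) of the motile, *Ift* and *Bbs* members by subtype (vertical axis, in order of the mean). Each point is a mouse that gave at least 10 such cells, blue for WT and red for *Fmr1*-KO, bars the means. The ependymal cells stand apart in each panel, by the largest factor for the motile members, at 6754 CPM against 208 CPM in Astrocytes_2.

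The *Ift* members were spread more evenly. After ependymal cells came Astrocytes_2 (687 ± 69.3 CPM), pericytes (649 ± 73.1 CPM) and CR cells (593 ± 85.7 CPM), each overlapping the next, down to microglia at 239 ± 23.3 CPM. The sum is led by *Ift20*. Without it pericytes moved from the third to the fifth place, at 441 ± 44.9 CPM. The *Bbs* members were highest after ependymal cells in CR cells (205 ± 28.8 CPM), then in Astrocytes_2 (127 ± 35.7 CPM), and lowest in microglia (33.5 ± 10.3 CPM).

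Among the primary cilium types, *Ift140*, *Bbs9* and *Bbs4* varied most. *Ift140*, of the retrograde particle, was at 39.8 ± 7.25 CPM in Astrocytes_2 and at 3.56 ± 7.95 CPM in OPC_2, where it rests on 2 UMIs. *Bbs9* was at 74.9 ± 32.2 CPM in CR cells and at 6.64 ± 1.66 CPM in Astrocytes_1, and these ranges were apart. *Bbs4* was at 54.9 ± 19.7 CPM in CR cells, above its 45.1 ± 26.0 CPM in ependymal cells, though the 2 ranges overlapped. *Bbs4* and *Bbs10* were the shared members, and *Tekt5* and *Dnah17* the motile ones, whose highest subtype was not the ependymal, whereas 43 of the 47 were highest there.

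Types that were kept out of the reference were compared with it for the shared members. In microglia, which are not known to bear cilia, 10 of 14 *Ift* and 4 of 8 *Bbs* members were lower than the reference in every mouse, against 43.5% of all genes. In oligodendrocytes the counts were 8 and 3 against 31.1%, in endothelial cells 7 and 3 against 42.2% and in pericytes 4 and 1 against 35.5%. The median log2 ratio of the *Ift* members was -1.01 in microglia and -1.25 in oligodendrocytes, where the medians of all genes were -0.36 and -0.24. *Ift43* was at 2.77 ± 3.26 CPM in microglia. In pericytes it was at 180, 234 and 174 CPM in the WT and 139, 74.4 and 188 CPM in the *Fmr1*-KO mice, above the 26.6 CPM of the reference in every mouse. *Ift20* too was above the reference in every mouse in pericytes (208 ± 48.8 CPM) and in endothelial cells (149 ± 33.2 CPM). These were 2 of 14 *Ift* members in pericytes and 1 of 14 in endothelial cells, against 12.1% and 14.4% of all genes that were higher in every mouse. In microglia and oligodendrocytes 0 shared members were, against 13.1% and 8.13%.

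Some motile members were also detected outside ependymal cells. *Foxj1* was highest elsewhere in Astrocytes_2 (44.7 ± 21.5 CPM), followed by *Rsph9* in the same subtype (34.2 ± 11.0 CPM) and *Dnah1*, an inner arm heavy chain, in CR cells (19.6 ± 12.6 CPM, n = 5, 15 UMIs). *Dnaic1* was at 16.7, 21.9 and 20.7 CPM in the WT and 20.3, 18.8 and 15.8 CPM in the *Fmr1*-KO mice in Astrocytes_1, from 633 UMIs in 6371 cells. In interneurons, oligodendrocytes and endothelial cells it had 0 UMIs, and in excitatory neurons 10. Every Astrocytes_1 value of *Dnaic1* was thus above its values in neurons, OPCs and CR cells, of which the highest was 5.22 CPM in the CR cells of WT 1, whereas Astrocytes_2 (17.7 ± 16.1 CPM) overlapped them.

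Motile members were often found together in single ependymal cells and seldom in single cells of other types. Of the 255 ependymal cells 95.7% (95% exact binomial interval 92.4% to 97.8%) had UMIs of 3 or more of the 25 motile members and 98.4% of at least 1, with a median of 10. Of 751 Astrocytes_2 cells 5.06% (3.61% to 6.88%) had 3 or more, of 6371 Astrocytes_1 cells 0.675%, and of 810 microglia 0 (upper exact bound 0.454%, and 0.370% as 3 counts of the total). At least 1 motile member was found in 24.0% of Astrocytes_1 cells (median 3755 UMIs per cell) and in 2.47% of microglia (median 2655.5 UMIs). Thinned to 700 UMIs per cell, with 6 Astrocytes_1 cells and 4 microglia too shallow and left out, these shares became 4.76% and 0.993%, and the shares with 3 or more became 71.8% in ependymal cells and 0.133% in Astrocytes_2. The intervals cover counting error only.

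**Figure D3:**
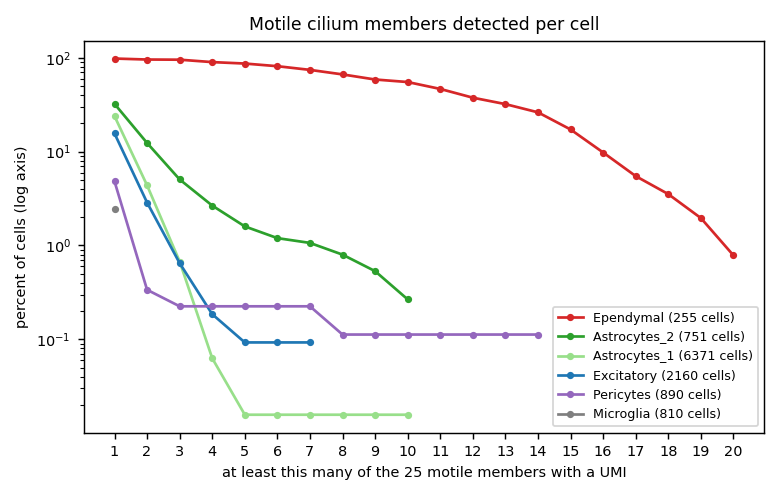
Percent of cells (vertical log axis) with UMIs of at least a given number of the 25 motile members (horizontal axis), for 6 subtypes without thinning. Ependymal cells stay near 100% up to 3 members (95.7%), whereas Astrocytes_2 fall to 5.06% and Astrocytes_1 to 0.675%.

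Altogether 242 cells had UMIs of 5 or more motile members, and 222 of these were ependymal. Of the 20 others 12 were Astrocytes_2, 3 were marked as doublets, 2 were excitatory neurons, 2 pericytes and 1 a cell of Astrocytes_1. Pooled, the 20 cells had 2959 CPM of motile members and 1691 CPM of the ependymal markers, below the 6761 and 4625 CPM of the ependymal cells. Whether these droplets held ependymal RNA next to that of another cell was not tested. Without them the motile sum of Astrocytes_2 was 162 ± 24.6 CPM and of Astrocytes_1 63.1 ± 9.57 CPM.

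Within the ependymal cells, 125 held a UMI of *Gmnc*, *Mcidas*, *Ccno* or *Cdc20b*, early regulators that are known to be switched on while basal bodies multiply, and 130 held none. This split was chosen after the data were seen and is given without a test. Cells with a regulator UMI were deeper (median 5684 against 3486 UMIs), and *Myb*, another early regulator that was not used for the split, was at 596 CPM in them against 212 CPM, higher in each of the 6 mice. *Top2a*, known from dividing cells and from multiciliated cells in formation, was at 359 against 34.7 CPM, and *Cdk1*, also listed for dividing cells, at 207 against 20.1 CPM. Both were higher in 6 of 6 mice. *Mki67*, a marker of dividing cells, had 9 UMIs in all ependymal cells together. It was not compared between the 2 groups, nor were *Ccnb1* and *Birc5*, the rest of the 5 genes listed. Between all ependymal cells and the reference types, the 5 had a median log2 ratio of -0.21. Of them, 0 were 4-fold higher and 1 was 4-fold lower in every mouse.

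The members did not move together between these groups of cells. *Foxj1* was at 2160 CPM in cells with a regulator UMI and 1375 CPM in the others, *Ift20* at 1159 and 580 CPM, and *Rsph1* at 1665 and 1292 CPM, each higher in 6 of 6 mice. *Dnah8* stood out, with 83 UMIs (106 CPM) against 7 UMIs (12.8 CPM), higher in 6 of 6 mice, though WT 3 held only 1 UMI of it. Other axonemal genes went the opposite way in all 6 mice: *Dnah5* was at 168 against 263 CPM, *Dnah9* at 313 against 423 CPM and the spoke head gene *Rsph4a* at 239 against 361 CPM. The genes named here were picked after their values were seen, and the share of all genes with such agreement is not given. Some groups were small, with 4 against 8 cells in *Fmr1*-KO 1 and 7 against 6 in WT 3. *Dnah5* was at 0 CPM in those 4 cells. The motile members together were at 7150 against 6206 CPM and the radial spoke genes at 2183 against 1915 CPM, each higher in 6 of 6 mice. Without *Foxj1* the motile members were at 4990 against 4832 CPM, higher in 4 and lower in 2 mice. The *Ift* members were at 3574 against 2840 CPM and the tektins at 797 against 579 CPM, each higher in 5 mice and lower in 1. Without *Ift20* the *Ift* members were at 2416 against 2260 CPM, higher in 3 and lower in 3 mice. The dynein heavy chains together were at 1655 against 1928 CPM, lower in 4 and higher in 2 mice. The *Bbs* members were at 455 against 425 CPM, higher in 3 and lower in 3 mice.

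**Figure D4:**
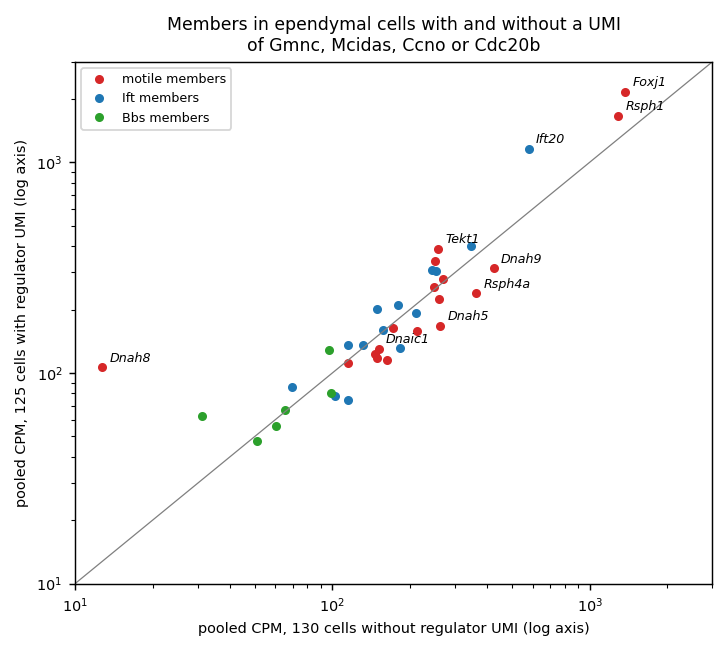
Pooled CPM of members with 60 or more UMIs in the 125 ependymal cells with a regulator UMI (vertical log axis) against the 130 cells without (horizontal log axis). Points above the grey line of equal levels are higher in cells with a regulator UMI, as *Dnah8* (106 against 12.8 CPM) and *Ift20* (1159 against 580 CPM).

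To ask whether loss of *Fmr1* altered the members, WT and *Fmr1*-KO mice were compared in each type with edgeR's quasi-likelihood test on the summed counts after TMM normalization, with a term for batch. Only genes detected in 15% or more of a type's cells entered. Genes at FDR under 0.01 with the minimum fold change of the study's methods were called. In ependymal cells 39 members were among 5797 genes tested, and edgeR called 0 of them, where 0% of all genes were called. DESeq2 called 0 as well. At an unadjusted p under 0.05 there was 1 member, against 2.93% of all genes, and 0 with DESeq2. Without *Fmr1*-KO 1 and WT 2, a choice made after seeing the data, edgeR called 0 members and 3 had an unadjusted p under 0.05. The share of all genes at that level is not given for that fit, and the 2.93% belongs to the fit with all mice. The WT mice had 83 ependymal cells, fewer than the minimum of 100 per genotype used for the other types, and *Fmr1* had 3 to 8 UMIs per mouse.

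The 3 members with the smallest p were *Dnaic1*, *Bbs9* and *Bbs2*. *Dnaic1* was at 192 ± 23.8 CPM in WT and 132 ± 24.995 CPM in *Fmr1*-KO mice (SD, n = 3 each), a log2 fold change of -0.66 (SE 0.30, edgeR adjusted p = 0.998), with -0.58 within batch 1 and -0.73 within batch 2. *Bbs9* was at 86.0 ± 47.6 and 142 ± 22.7 CPM (0.73, SE 0.40), with 1.36 within batch 1 and 0.28 within batch 2. *Bbs2*, also a BBSome subunit, was at 35.3 ± 20.3 and 83.0 ± 26.2 CPM (0.91, SE 0.50), with 0.89 and 0.82 within the batches. *Foxj1* was at 2221 ± 182 and 1703 ± 93.8 CPM (-0.34, SE 0.19). The levels of *Dnaic1*, *Foxj1* and *Bbs2* did not overlap between the genotypes, which made 3 of 39 members (7.30% of all genes tested did not overlap). The median log2 fold change was -0.06 over the motile, 0.01 over the *Ift* and 0.80 over the *Bbs* members tested, beside 0.00 over all genes, and 5 of the 6 *Bbs* members were higher in *Fmr1*-KO. All 8 *Bbs* members together summed to 336, 423 and 318 CPM in the WT and 587, 587 and 434 CPM in the *Fmr1*-KO mice. Within batch 2 these were 423 and 318 CPM in WT 2 and WT 3 and 434 CPM in *Fmr1*-KO 3. Within batches 1 and 2 the log2 ratios were 1.76 and 0.18 for *Bbs5*, and 0.81 and 0.63 for *Bbs4*. They were 0.58 and -0.17 for *Bbs7*, and 0.00 and -0.11 for *Bbs1*.

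**Figure D5:**
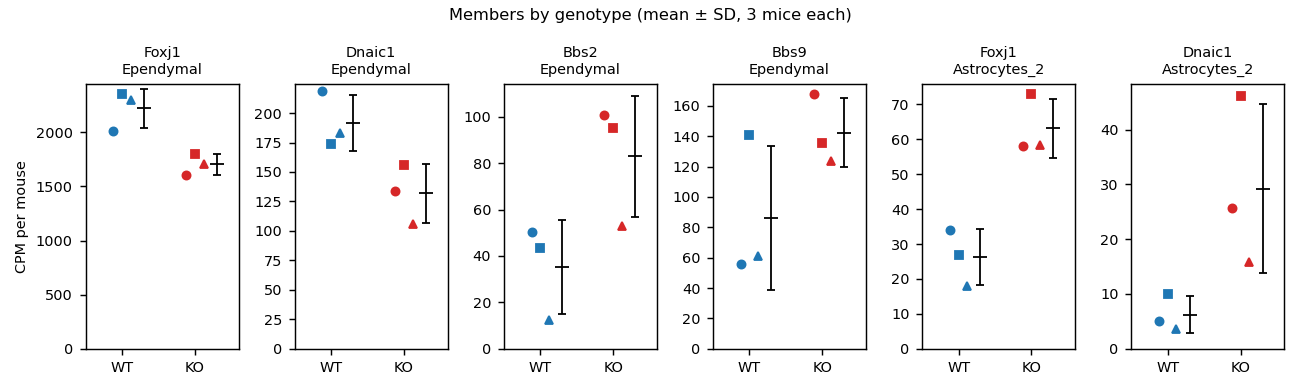
CPM per mouse (vertical axes, from 0) of *Foxj1*, *Dnaic1*, *Bbs2* and *Bbs9* in ependymal cells and of *Foxj1* and *Dnaic1* in Astrocytes_2, by genotype, with the mean ± SD of 3 mice beside the points. *Foxj1* and *Dnaic1* are lower in the 3 *Fmr1*-KO mice in ependymal cells (1703 against 2221 and 132 against 192 CPM) and higher in Astrocytes_2 (63.2 against 26.3 and 29.2 against 6.25 CPM).

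In the 11 other types and subtypes tested, only *Ift* members passed the filter, in 27 tests. edgeR called 0 of them, against 0.0141% of the tests of all genes, and 5 had an unadjusted p under 0.05, all of them higher in *Fmr1*-KO, against 6.07% of the tests of all genes. These tests were not independent. Neurons as a whole contain the excitatory, interneuron and ganglionic cells tested again, all types come from the same 6 mice, and *Ift20* recurs among the 5. *Ift46* in neurons had the smallest, at 50.2 ± 1.75 CPM in WT and 72.5 ± 21.8 CPM in *Fmr1*-KO mice (log2 fold change 0.64, SE 0.15, edgeR adjusted p = 0.131), with 0.27 within batch 1 and 0.87 within batch 2, where 16.6% of the genes tested in neurons were at an unadjusted p under 0.05. The log2 fold change of *Ift20* was 0.30 in Astrocytes_1, 0.54 in pericytes and 0.61 in ganglionic precursors, where 4.72%, 3.29% and 6.39% of genes were at that level. Its levels overlapped between the genotypes in each of these types. They were 76.7 ± 14.2 CPM in WT and 84.5 ± 13.2 CPM in *Fmr1*-KO mice in Astrocytes_1. In pericytes they were 181 ± 32.5 and 236 ± 51.6 CPM, and in ganglionic precursors 72.3 ± 39.3 and 85.8 ± 32.1 CPM. In endothelial cells, where 11.0% of genes were at that level, the log2 fold change of *Ift43* was 0.79. The levels of *Ift43* overlapped there, at 36.8 ± 17.3 CPM in WT and 41.3 ± 24.8 CPM in *Fmr1*-KO mice, and the log2 ratios within the batches, 0.30 and 0.59, were below the fitted value. DESeq2 called 0 and had 2 tests at an unadjusted p under 0.05, for which the share of all genes is not given.

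In Astrocytes_2 the motile members were too sparse for that filter, and their levels are given as a description chosen after the values were seen. *Foxj1* was at 34.0, 26.8 and 17.99 CPM in the WT and 58.2, 73.0 and 58.3 CPM in the *Fmr1*-KO mice, and *Dnaic1* at 5.10, 10.1 and 3.60 CPM and at 25.6, 46.1 and 15.9 CPM. The genotypes did not overlap for either gene, though *Dnaic1* rested on 3, 3 and 1 UMIs in the WT mice. All motile members together summed to 139, 178 and 137 CPM in the WT and 249, 305 and 242 CPM in the *Fmr1*-KO mice. Of the 17 motile members with 10 or more UMIs, 4 (*Foxj1*, *Dnaic1*, *Rsph1* and *Tekt1*) were higher in all 3 *Fmr1*-KO mice, against 4.97% of genes, and 0 were lower in all 3, against 3.63%. The 10 UMIs were summed over both genotypes, so that a gene could pass through the genotype where it was high, as *Dnaic1* did. These counts are therefore a description and no support for a difference.

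Of the 12 Astrocytes_2 cells with UMIs of 5 or more motile members, 11 came from *Fmr1*-KO mice, which gave 402 Astrocytes_2 cells against 349 from WT mice. These cells were selected by UMIs that are part of the motile sum. Leaving them out therefore lowers the *Fmr1*-KO sum by construction, and the values that follow are a description only. Without them the motile sum was 148 ± 25.7 CPM in WT and 175 ± 17.6 CPM in *Fmr1*-KO mice and overlapped, while *Foxj1* was at 34.4, 26.8 and 17.99 CPM and at 52.9, 46.2 and 40.6 CPM and still did not. The 8 ependymal markers in Astrocytes_2 summed to 36.0 to 101 CPM in WT and 62.9 to 131 CPM in *Fmr1*-KO mice, with none of the 8 at 0, and their part in the result was not tested. In the edgeR fit without a filter on low counts, *Foxj1* had a log2 fold change of 1.12 (SE 0.34, FDR = 0.284) and *Dnaic1* of 2.06 (SE 0.58, FDR = 0.199), and 0 motile members were called.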

How the data were processed

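Single-cell libraries from the cortex of 6 mice, 3 WT and 3 *Fmr1*-KO, were read as UMI counts. The authors aligned reads to mm10 with TopHat2 2.0.14 and RefSeq v69 transcripts, counted UMIs per gene at transcript 3′ ends with ESAT, ignoring reads that map to several places, and deposited the raw counts with the subtype of each cell. Close copies such as *Dnah7a* and *Dnah7b* therefore lose reads. Cells the authors marked as doublets were left out and no other doublet caller was run.

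UMIs were summed per mouse and subtype (Python 3.11.15, pandas 2.3.3). Ratios used a pseudocount of 5 CPM, mice with 10 or more cells of a subtype and genes with 10 or more UMIs. Genotypes were compared with edgeR 4.0.16 (R 4.3.3; quasi-likelihood test, TMM, batch as covariate, Benjamini-Hochberg FDR), with DESeq2 1.42.0 as an alternative. TMM took the place of the scran size factors of the study. The edgeR test and the ratio calls, but not DESeq2, were tested on simulated data. Most simulated 2-fold changes were missed by edgeR in ependymal cells, and most were found in neurons and Astrocytes_1. Replicates are separate mice. Shares have Clopper-Pearson intervals. Gene positions are from GENCODE and promoters from RefSeq.

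The members and lists were chosen with earlier results of these data known. Named were *Foxj1*, in each family the 3 members with the highest ependymal level and those with the highest and lowest ratio, the 3 motile members highest outside ependymal cells, the 3 shared members that varied most among primary cilium types, and the 3 with the smallest p. Genes named outside this rule were chosen after their values were seen. Alternatives were other pseudocounts, folds, filters and normalizations, thinning to 700 UMIs, leaving out each mouse, a replicate block and 1 cell per mouse and barcode.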

Additional observations from a re-analysis of the deposited data

Results flagged for a closer look

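In 4 of 60 groups of mice 1 mouse lay beyond Dixon's 95% critical value, a limit that by its definition chance passes in about 1 in 20 groups. The motile members summed to 164 CPM in the pericytes of WT 1, above 9.56 to 66.2 CPM in the other mice, and to 78.4 CPM in the SVZ cells of *Fmr1*-KO 2, where the SVZ cells of all mice together held 9 UMIs of motile members. The *Bbs* members summed to 71.7 CPM in the endothelial cells of *Fmr1*-KO 2, the highest value, and to 81.2 CPM in the excitatory neurons of *Fmr1*-KO 1, the lowest.

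Cells marked as doublets were left out of every comparison of cell types and genotypes, and 3 of them are among the 20 cells with 5 or more motile members. Pooled, they held 101 CPM of motile members, above the 1.98 CPM that a count of 0 allows, and 65.9 CPM without those 3 cells.

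*Dnaic1* and *Foxj1* were picked because their genotypes did not overlap in ependymal cells or in Astrocytes_2 and differed in opposite directions. The lack of overlap is thus the rule of choice, and the share of all genes that meet it is not given. In Astrocytes_2 *Dnaic1* had 3, 3 and 1 UMIs in the WT and 11, 24 and 9 UMIs in the *Fmr1*-KO mice. The log2 ratio of the *Fmr1*-KO mean over the WT mean was -0.54 for *Dnaic1* and -0.38 for *Foxj1* in ependymal cells, and 2.22 and 1.27 in Astrocytes_2. The difference between the cell types was not tested, and in edgeR neither gene passed the FDR in either. With 1 cell kept per mouse and barcode the values in Astrocytes_2 were 2.51 and 1.49.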

How the results depend on the processing

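Of 230 alternatives to the values that answer a comparison, 219 stayed within the limits set by the spread between mice or by 1.5 times a count, 11 moved further and 0 changed direction. The median log2 ratio of the motile members was 5.81 with a pseudocount of 1 CPM and 2.85 with 20 CPM. The 6 shared members at least 4-fold higher became 3 with a pseudocount of 20 CPM, and 13 were at least 2-fold and 0 at least 8-fold higher in every mouse. Thinning each cell to 700 UMIs gave an *Ift* sum of 263 CPM in microglia. It gave 71.8% of ependymal and 0.133% of Astrocytes_2 cells with 3 or more motile members, and 4.76% of Astrocytes_1 cells and 0.993% of microglia with at least 1. With 1 cell per mouse and barcode, an alternative chosen after seeing the data, 26.6% of Astrocytes_1 cells had at least 1. The cause of these shifts was not tested beyond the construction of each alternative. Without each mouse in turn 17 to 18 motile and 6 to 7 shared members passed 4-fold.

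No member was called between the genotypes under any alternative run. In ependymal cells 4 members were at an unadjusted p under 0.05 without *Fmr1*-KO 3, 3 without WT 2, and 0 without the batch term, without a filter or with DESeq2. In the other types the 5 tests at an unadjusted p under 0.05 became 1 without the batch term or without *Fmr1*-KO 3, 3 without WT 3, 2 with DESeq2, 11 with filterByExpr and 21 with no filter on low counts. The looser filters tested more members: in Astrocytes_2 the motile members tested went from 0 to 3 with filterByExpr and 23 with no filter. The share of all genes at that level is not given for any alternative in this paragraph, so these counts are no result about the members. The replicate numbers did not pair all the mice. The deviations of the mice numbered 2, which are in different batches, correlated at -0.11 in ependymal cells and at -0.50 in neurons. Those of the mice numbered 1 and of the mice numbered 3, each in the same batch, correlated at 0.16 and 0.21 in ependymal cells. In neurons these were 0.78 and 0.80. With the replicate block 0 members were called, and 2 in ependymal cells and 2 tests in other types were at an unadjusted p under 0.05. Keeping doublets gave no value because they carry no subtype. The 83 WT ependymal cells limit what the comparison of genotypes could detect.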

Other observations

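Promoter letters were also counted for the lists of other ciliary genes. A gene was counted once if any of its windows held the letters. The full RFX motif was found in 7 of 48 (14.6%) of the other cilium assembly and ciliary membrane genes with a window, against 0.903% of all 27025 genes. GTTGCCA, which can share letters with it, was found in 12 of the 48. Of 41 other motile cilium genes with a window 9 held GTTGCCA (22.0%) and 1 the full motif. Of the 9 regulators 3 held GTTGCCA and 0 the full motif. These are counts of genes by letters in their windows, with no test.

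Within the ependymal cells that held a UMI of an early regulator, the 8 ependymal markers together were at 4027 CPM, against 5478 CPM in the other ependymal cells, lower in 5 of 6 mice. *Cdk1*, a kinase of the cell cycle, was at 207 against 20.1 CPM, higher in 6 of 6 mice. *Rfx3*, a transcription factor of ciliary genes, was at 136 against 177 CPM, higher in 3 and lower in 3 mice.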
